A study of Mus musculus with 2 samples.

Results

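The unfolded protein response (UPR) and endoplasmic reticulum (ER) folding genes were examined in mouse intestinal organoids with and without dextran sulfate sodium (DSS). A set of 38 genes was chosen by name, and 37 of them are listed by symbol among the 19294 genes of the count table. Derl3, which encodes a derlin of the ER membrane, is not listed there and was not analysed here. The organoids were grown from intestinal crypts of Lgr5-EGFP-IRES-creERT2 mice, in which the Lgr5 locus drives EGFP and an inducible Cre, in medium with EGF, Noggin and R-spondin. One library came from a control culture and 1 from a culture given DSS, a sulfated polysaccharide that injures epithelium, for 4 days. Both groups share the genotype and the medium, and the DSS concentration of the sequenced culture is not given in the sources used here. With 1 library per condition, no difference has a replicate check and no p-value is given.

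The ER lumen is where secreted and membrane proteins are folded, and intestinal secretory cells place a heavy load on it. When unfolded proteins accumulate, 3 sensors in the ER membrane respond. PERK phosphorylates eIF2, which slows translation and favours the production of ATF4. IRE1 splices the Xbp1 mRNA, and ATF6 is cut by proteases to release a transcription factor. Their targets include chaperones, enzymes of disulfide bond formation and the ER-associated degradation (ERAD) machinery. Phosphorylation, splicing and cleavage were not measured by counts per gene, so the values below are mRNA levels only.

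The promoters below are shown because the best known elements of this response lie close to the start of the gene. The sequences are RefSeq windows of 250 bases before the start site on GRCm38.p6, written 5′ to 3′ on the strand of the gene. Capitals mark a match to the ER stress element (ERSE, the boxes CCAAT and CCACG with 9 bases of any kind between them) on either strand in Hspa5, Hsp90b1 and Ero1lb. In Chac1 and Asns they mark the core of the element bound by ATF4 and C/EBP factors (CARE, TGATGNAA). In Herpud1 the first run of capitals is a CARE core and the second is the element ERSE-II (ATTGG and CCACG with 1 base of any kind between them). The windows are chr2:34771840-34772089 (plus strand), chr10:86705445-86705694 (minus strand), chr13:12565633-12565882 (plus strand, listed in RefSeq as Ero1b), chr8:94386179-94386428 (plus strand), chr2:119350992-119351241 (plus strand) and chr6:7693210-7693459 (minus strand).
Hspa5: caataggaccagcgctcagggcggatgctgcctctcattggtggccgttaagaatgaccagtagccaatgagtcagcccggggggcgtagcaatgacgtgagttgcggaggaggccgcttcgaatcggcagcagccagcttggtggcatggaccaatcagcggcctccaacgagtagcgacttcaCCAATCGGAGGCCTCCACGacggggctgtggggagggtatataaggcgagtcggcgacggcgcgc
Hsp90b1: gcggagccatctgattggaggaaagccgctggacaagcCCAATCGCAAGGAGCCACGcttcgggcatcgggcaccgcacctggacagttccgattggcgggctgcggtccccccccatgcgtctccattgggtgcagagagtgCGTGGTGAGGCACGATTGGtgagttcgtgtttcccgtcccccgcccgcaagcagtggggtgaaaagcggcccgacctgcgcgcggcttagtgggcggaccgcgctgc
Ero1lb: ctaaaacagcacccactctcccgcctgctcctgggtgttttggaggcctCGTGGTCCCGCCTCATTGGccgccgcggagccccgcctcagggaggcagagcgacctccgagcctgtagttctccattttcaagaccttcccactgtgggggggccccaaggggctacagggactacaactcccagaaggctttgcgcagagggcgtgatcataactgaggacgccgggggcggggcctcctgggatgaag
Herpud1: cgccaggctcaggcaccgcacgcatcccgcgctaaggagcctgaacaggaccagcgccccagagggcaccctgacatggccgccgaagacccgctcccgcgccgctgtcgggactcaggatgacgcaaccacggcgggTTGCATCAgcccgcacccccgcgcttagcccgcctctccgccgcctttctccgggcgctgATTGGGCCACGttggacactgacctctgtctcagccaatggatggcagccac
Chac1: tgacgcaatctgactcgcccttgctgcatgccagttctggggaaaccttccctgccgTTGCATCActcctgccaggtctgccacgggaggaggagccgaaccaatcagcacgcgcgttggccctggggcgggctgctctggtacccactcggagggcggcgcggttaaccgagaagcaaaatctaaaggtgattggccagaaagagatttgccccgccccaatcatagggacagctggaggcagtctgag
Asns: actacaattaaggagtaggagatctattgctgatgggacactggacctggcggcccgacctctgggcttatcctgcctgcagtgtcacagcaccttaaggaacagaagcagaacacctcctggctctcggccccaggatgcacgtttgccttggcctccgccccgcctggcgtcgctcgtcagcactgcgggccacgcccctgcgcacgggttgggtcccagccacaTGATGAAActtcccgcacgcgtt

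A window was matched for 30 of the 37 genes. The ERSE was found in 7 of them, namely Hspa5, Hsp90b1, Dnajc3, Pdia6, Creld2, Ero1lb and Syvn1, and in 0.113% of all 32851 windows of the same length. Hsp90b1 held 2 matches. The ERSE-II was found in Herpud1 alone among these genes and in 0.0304% of all windows. The CARE core, which is short, was found in Chac1, Asns and Herpud1 and in 3.45% of all windows. The core of the UPR element (TGACGTGG) was found in none of the 30 windows and in 0.563% of all windows. A match to letters is a description of the window and not a measured binding site.

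The total of the control library was 65493032 counts, and that of the DSS-treated organoids 59746968. A level is given as CPM, the count after scaling to a common library total with TMM factors, and a difference as the log2 of the DSS over the control level. The 95% intervals are exact (Clopper-Pearson) and cover counting error only. A minimum of 10 counts in either library left 17235 genes, of which 19.3% were at a log2 ratio of 1 or more and 20.2% reached -1 or less. All 37 genes passed this count minimum. On the higher side, 6 reached 1 (16.2%), and on the lower side 4 reached -1 (10.8%), so neither share exceeded that of all genes. Past the line in either direction were 10 of 37 genes, against 39.5% of all genes tested. The median log2 ratio of the 37 genes was 0.01 and that of all genes was -0.06. The share of all counts falling on the 37 genes was 0.713% in the control and 0.685% with DSS, without scaling. After TMM scaling, their sum was 6524 CPM in the control and 7488 CPM with DSS. P4hb alone held 113115 of their 466924 counts in the control and 153516 of their 409414 counts with DSS. Of all genes past the line of 1 in either direction, 48.9% were higher in the DSS library, and 37.1% when libraries were scaled by total counts alone.

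**Figure D1:**
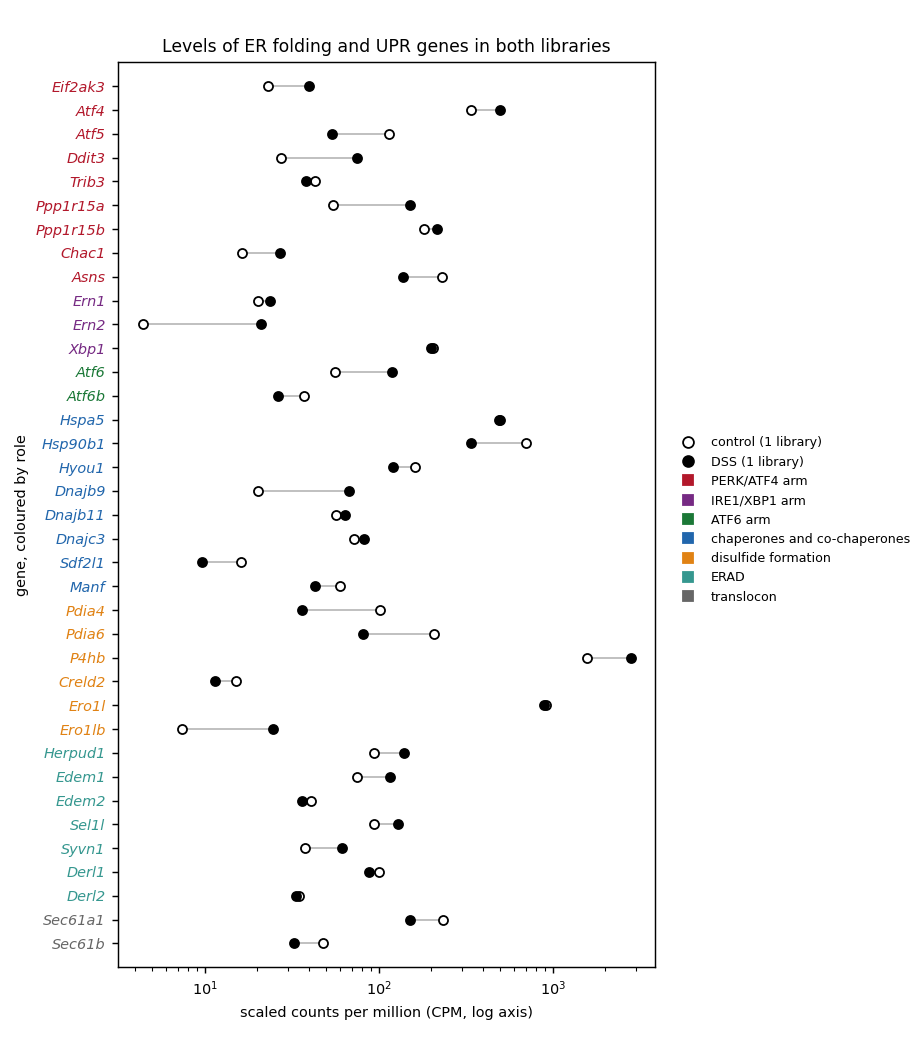
Level of each gene in the control library (open circles) and the DSS library (filled circles), in TMM-scaled CPM on a log axis, with gene names coloured by role. Ern2, Dnajb9 and Ero1lb show the widest gaps in favour of the DSS library, Pdia4 and Pdia6 the widest in favour of the control, and the circles of Hspa5, Xbp1 and Ero1l nearly coincide.

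In the PERK and ATF4 arm, the median log2 ratio over 9 genes was 0.54, with 2 genes reaching 1 and 1 gene reaching -1. Eif2ak3, which encodes PERK, had 1653 counts without and 2170 counts with DSS (23.1 and 39.7 CPM, control first here and below). The log2 ratio of 0.78 had bounds of 0.69 and 0.87. Atf4, the transcription factor of this arm, had 24420 and 27181 counts (341 and 497 CPM), a log2 ratio of 0.54. Both genes were higher in the DSS library by less than the line of 1.

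The genes of this arm at 1 or more were a regulator of cell death and a phosphatase subunit. Ddit3 (NCBI gene 13198), which encodes the transcription factor CHOP, had 1977 and 4085 counts (27.6 and 74.7 CPM). This gave a log2 ratio of 1.44 (interval 1.36 to 1.51). Ppp1r15a (NCBI gene 17872) encodes the stress-induced subunit that directs dephosphorylation of eIF2, and it had 3907 and 8275 counts (54.6 and 151 CPM). The gene stood at 1.47 on the log2 scale (interval 1.42 to 1.53). Ppp1r15b, which encodes the constitutive counterpart of that subunit, had 13094 and 11775 counts and a log2 ratio of 0.24, which was -0.02 with total counts. The difference between the log2 ratios of Ppp1r15a and Ppp1r15b was 1.24, with a Woolf interval from 1.17 to 1.30. Such a difference between a pair of genes does not depend on the scaling of the libraries.

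Other genes known as ATF4 targets differed from Ddit3 in size or in sign. Chac1, which encodes an enzyme that degrades glutathione, had 1171 and 1489 counts (16.4 and 27.2 CPM), a log2 ratio of 0.74. Trib3, a pseudokinase, had 3065 and 2087 counts and a log2 ratio of -0.17. Asns, which encodes asparagine synthetase, had 16548 and 7561 counts (231 and 138 CPM), a log2 ratio of -0.74 (interval -0.78 to -0.70). Chac1 and Asns both hold a CARE core in the sequences shown above, and their log2 ratios differed by 1.48, with an interval from 1.36 to 1.59. Ddit3 exceeded Asns by 2.18 on the log2 scale, and per kilobase it was at 0.271 times the level of Asns in the control and at 1.22 times with DSS. Atf5 (NCBI gene 107503), a transcription factor whose translation also depends on eIF2 phosphorylation, had 8237 and 2935 counts (115 and 53.7 CPM) and a log2 ratio of -1.10. It was the only gene of this arm at -1 or less.

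The other ATF4 targets were described from lists written by hand. Of 14 stress regulators, 2 reached 1, 1 reached -1 and the median was -0.37. Atf3, a transcription factor of the stress response, was at 2.68, with 2551 and 12521 counts. Pmaip1, which encodes the proapoptotic protein Noxa, was at 1.59, with 7851 and 18072 counts. Ddit4, an inhibitor of mTORC1, was at -1.21. Genes of amino acid supply were lower as a group, with 11 of 18 reaching -1, 1 reaching 1 and a median of -1.21. Phgdh, the first enzyme of serine synthesis, had 11938 and 716 counts (167 and 13.1 CPM) and a log2 ratio of -3.67. Pycr1, an enzyme of proline synthesis, was at -2.24. Cbs, of cysteine synthesis, had 425 and 9 counts and was at -5.17, with an interval from -6.31 to -4.23. The exception at 1 or more was Slc7a11, the cystine transporter subunit, at 2.10 with 1614 and 5281 counts, named after its value was seen.

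The cytosolic aminoacyl-tRNA synthetases, many of which are ATF4 targets, were below 0 in 20 of 20 cases, against 8963 of all 17235 genes tested. Of these synthetases, 6 were at -1 or less, and their median was -0.69. The lowest was Vars at -2.21, followed by Iars at -1.63 and Kars at -1.33. Among 11 genes of the other eIF2 kinases, eIF2 and its exchange factor eIF2B, 4 were at -1 or less and none at 1 or more, with a median of -0.60. Eif2b3 was at -1.49, Eif2b1 at -1.13 and Eif2s3x at -1.08. The kinases of this list went both ways and were named after their values were seen. Eif2ak1 was at 0.85, Eif2ak2 at 0.45 and Eif2ak4 at -1.04. These lists moved beside markers of dividing cells, of which 4 of 5 were at -1 or less and whose summed level was 1165 CPM without and 229 CPM with DSS. The part of dividing cells in these values was not tested. In bulk libraries, fewer cells of a type and less RNA per cell cannot be told apart.

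**Figure D2:**
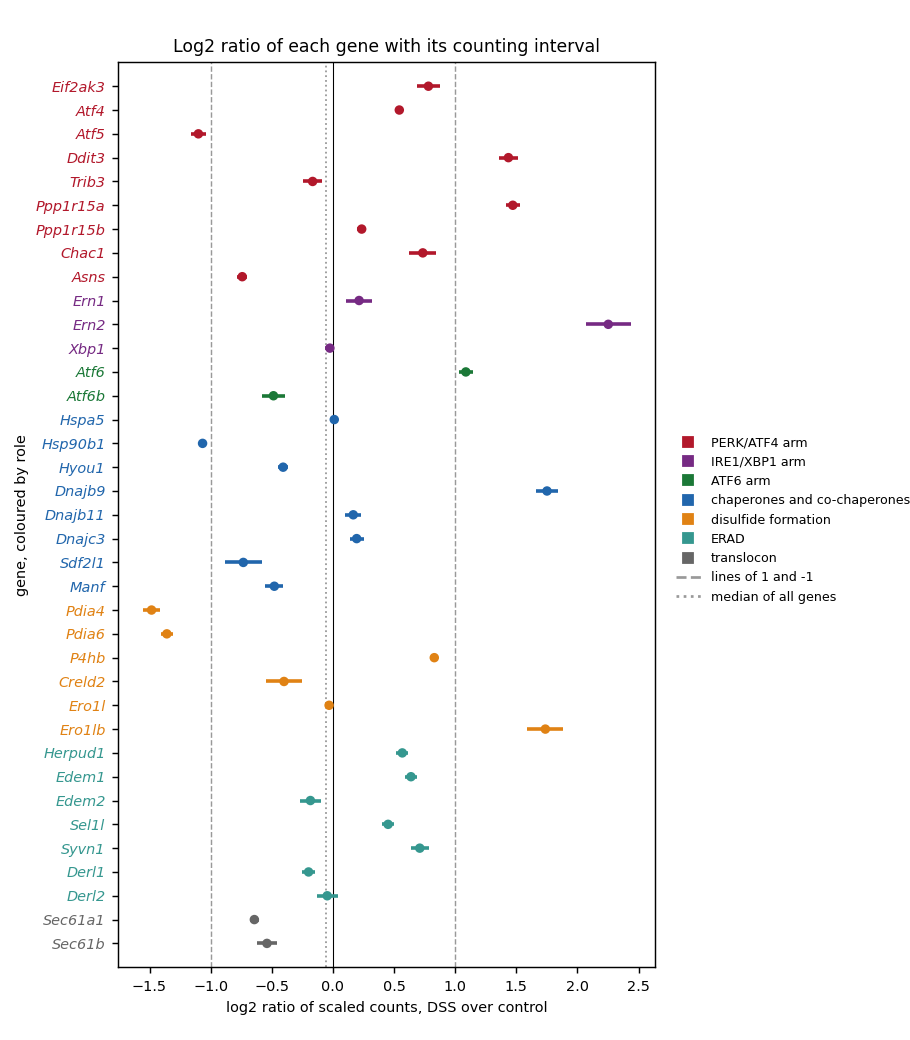
Log2 ratio of scaled counts, DSS over control, for each gene (points) with its 95% counting interval (bars), coloured by role. Dashed lines mark 1 and -1 and the dotted line the median of all genes. The genes of ERAD all lie between the dashed lines, and each of the PERK/ATF4, chaperone and disulfide groups holds genes beyond both lines.

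The IRE1 and XBP1 arm was taken as 3 genes, and Dnajb9, a target of XBP1 at 1.75, is described among the chaperones. Of these 3 genes, only Ern2 (NCBI gene 26918) reached the line of 1. This gene encodes IRE1β, the form of the sensor known from mucus-producing epithelium, and had 316 counts without and 1150 counts with DSS (4.42 and 21.0 CPM). At a log2 ratio of 2.25 (interval 2.07 to 2.44), it was the only one of the 37 genes at 2 or more, against 7.87% of all genes tested. None of the 37 reached -2, against 6.54% of all genes. Ern1, which encodes the ubiquitous IRE1α, had 1458 and 1292 counts (20.4 and 23.6 CPM), a log2 ratio of 0.21 that was -0.04 with total counts. The log2 ratios of Ern2 and Ern1 differed by 2.04, with an interval from 1.83 to 2.25. Per kilobase of transcript, the level of Ern2 was 0.517 times that of Ern1 in the control and 2.12 times in the DSS library. By this measure, which rests on the longest transcript of each gene, the order of both sensors was exchanged between the libraries. In counts not divided by length, Ern2 stayed below Ern1, at 0.217 times its count in the control and 0.890 times in the DSS library.

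Xbp1, the mRNA that IRE1 splices, had 14599 and 10962 counts (204 and 200.5 CPM). The log2 ratio of Xbp1 was -0.02 (interval -0.06 to 0.01, which includes 0), and it was 0.07 with upper quartile factors. Among 9 genes of IRE1 partners and of mRNAs known to be cut by IRE1, 7 were between the lines and the median was 0.59. Tmbim6, an ER membrane protein that binds IRE1, was at 0.86, Bloc1s1, a cut mRNA in many cells, was at 0.66, and Rtcb, the ligase that completes Xbp1 splicing, was at -0.71. The 2 genes at 1 or more were Sparc and Col6a1, named after their values were seen. They had 4 and 5 counts in the control library and 12 each in the DSS library. Both thus passed the count minimum through the DSS library alone, and both enter the median of this list.

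Markers of goblet cells, the mucus-secreting cells in which Ern2 is known, were higher in the DSS library. All 9 listed markers of 10 were at 1 or more, from 1.60 to 9.29, and their summed level went from 820 CPM to 11574 CPM with DSS. Agr2, a disulfide isomerase known for its role in mucin folding, had 3571 and 12239 counts (49.9 and 224 CPM) and a log2 ratio of 2.17. The part of goblet cells in the level of Ern2 was not tested. In the study that reported these data, RT-PCR found Muc2, Vil1 and Chga at similar levels in DSS-treated organoids, with Lgr5 and Lyz lower. Muc2 was at 4.98 in the present libraries. The DSS dose and day of that RT-PCR are not given in the sources used here. Paneth cells, the other secretory cells with a dense ER, had 7 of 7 markers below 0, against 8963 of all 17235 genes tested. These markers ran from -3.87 to -0.88, and 5 of them were at -1 or less. Their sum was 1073 CPM without DSS and 335 CPM with it.

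In the ATF6 arm, both members moved apart. Atf6 (NCBI gene 226641), the sensor that is cut to an active factor, had 4046 and 6567 counts (56.5 and 120 CPM). Atf6 was at a log2 ratio of 1.09 (interval 1.03 to 1.14), and at 0.83, below the line of 1, with total counts. Atf6b, its weaker relative, had 2657 and 1449 counts (37.1 and 26.5 CPM) and a log2 ratio of -0.49. The difference between them was 1.57, with an interval from 1.46 to 1.68. Mbtps1 and Mbtps2, the site proteases that cut ATF6, stood in a list of 8 with the related transcription factors of the ER membrane, of which 3 reached 1 and none reached -1. The proteases themselves, named after their values were seen, were at -0.42 and -0.98. In that list, Creb3l3, a factor of lipid metabolism in liver and intestine, had 1471 and 18787 counts (20.6 and 344 CPM) and a log2 ratio of 4.06. Creb3l2 was at 2.19 with 1828 and 6389 counts, and Creb3l4 at 1.02. Enterocyte markers were at 1 or more in 11 of 11 cases, from 1.24 to 5.27, with summed levels of 4471 and 30574 CPM. Vil1, one of these markers, was at 1.25 here and at a similar level in the RT-PCR described above. The part of enterocytes in the level of Creb3l3 was not tested.

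The chaperones did not move as a block. The median log2 ratio over 8 chaperones and co-chaperones was -0.20, with 1 gene reaching 1 and 1 reaching -1. Hspa5, which encodes BiP, the major chaperone of the ER and the usual gauge of the response, had 35209 and 27105 counts (492 and 496 CPM). The log2 ratio of Hspa5 was 0.01 (interval -0.01 to 0.03, which includes 0), and it ranged from -0.24 with total counts to 0.10 with upper quartile factors. Hsp90b1 (NCBI gene 22027), the HSP90 chaperone of the ER, had 50543 and 18441 counts (706 and 337 CPM). Hsp90b1 was thus at -1.07 (interval -1.09 to -1.04), and at -0.98 with upper quartile factors. The log2 ratios of Hspa5 and Hsp90b1 differed by 1.08, with an interval from 1.04 to 1.11. Per kilobase of transcript, Hspa5 was at 0.536 times the level of Hsp90b1 in the control and at 1.13 times in the DSS library.

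Dnajb9 (NCBI gene 27362) stood apart from the other chaperones. It encodes a J-domain partner of BiP that is a target of XBP1 and restrains IRE1, and it had 1446 and 3718 counts (20.2 and 68.0 CPM). Its log2 ratio of 1.75 (interval 1.66 to 1.84) exceeded that of Hspa5 by 1.74. The other J-domain partners were close to the median of all genes. Dnajb11 had 4071 and 3490 counts and was at 0.17, and Dnajc3 had 5161 and 4511 counts and was at 0.19, and both were below 0 with total counts. Hyou1, the nucleotide exchange factor of BiP, was at -0.41 with 11506 and 6628 counts. Manf, a secreted ER stress factor, was at -0.48 with 4279 and 2345 counts, and Sdf2l1, which joins BiP complexes, was at -0.73 with 1153 and 530 counts.

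The remaining lectins, glucosidases and folding helpers of the ER were mostly lower. Of 20 such genes, 5 were at -1 or less, none was at 1 or more, and the median was -0.31. Fkbp11, a peptidyl-prolyl isomerase of secretory cells, had 913 and 136 counts and was at -2.36, Cnpy4 was at -1.52, and Fkbp7 was at -1.48 with 146 and 40 counts. The abundant lectin chaperones Canx and Calr were at -0.90 and -0.34 and were named after their values were seen.

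The enzymes of disulfide formation covered the widest range of levels. P4hb, the classical protein disulfide isomerase, was the most abundant of the 37 genes per kilobase in both libraries, with 113115 and 153516 counts (1580 and 2808 CPM). The log2 ratio of P4hb was 0.83 (interval 0.82 to 0.84). The isomerases Pdia4 and Pdia6 went the other way. Pdia4 (NCBI gene 12304) had 7265 and 1985 counts (101 and 36.3 CPM) and a log2 ratio of -1.48 (interval -1.56 to -1.41). Pdia6 (NCBI gene 71853) had 14826 and 4418 counts (207 and 80.8 CPM) and a log2 ratio of -1.36. Per kilobase, P4hb was at 5.80 times the level of Pdia6 in the control and at 26.4 times in the DSS library. Against Pdia4, the same ratio was 13.1 and 64.8. P4hb also serves as a subunit of prolyl hydroxylase and of the microsomal triglyceride transfer protein of enterocytes.

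The oxidases that recharge these isomerases differed from each other. Ero1l had 65194 and 48738 counts (911 and 891 CPM) and a log2 ratio of -0.03, which was 0.06 with upper quartile factors. Ero1lb (NCBI gene 67475), the form known from pancreas and other secretory tissue, had 530 and 1350 counts (7.41 and 24.7 CPM) and a log2 ratio of 1.74 (interval 1.59 to 1.89). The log2 ratio of Ero1lb exceeded that of Ero1l by 1.77, but its level per kilobase remained at 0.0289 times that of Ero1l in the DSS library. Creld2, a further disulfide isomerase induced by ER stress, had 1083 and 627 counts and was at -0.40. Enteroendocrine markers, from another secretory lineage, were at 1 or more in 9 of 10 cases, with summed levels of 882 and 4562 CPM. Most of these sums was Chgb, at 608 and 3003 CPM. The exception was Neurog3, at -3.14 with 692 and 60 counts. Chga, one of these markers, was at 2.60 here and at a similar level in the RT-PCR described above. The part of enteroendocrine cells in the level of Ero1lb was not tested.

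Of 18 other isomerases and oxidases, 3 reached 1 and 5 reached -1, with a median of -0.28. Prdx4, a peroxiredoxin of the ER that uses the peroxide formed by these oxidases, was at -2.98 with 1822 and 177 counts. Pdia2 was at -2.39 with 604 and 88 counts. Beside Agr2, the genes at 1 or more were Agr3 at 1.53 with 79 and 174 counts and Selm at 1.15, named after their values were seen.

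**Figure D3:**
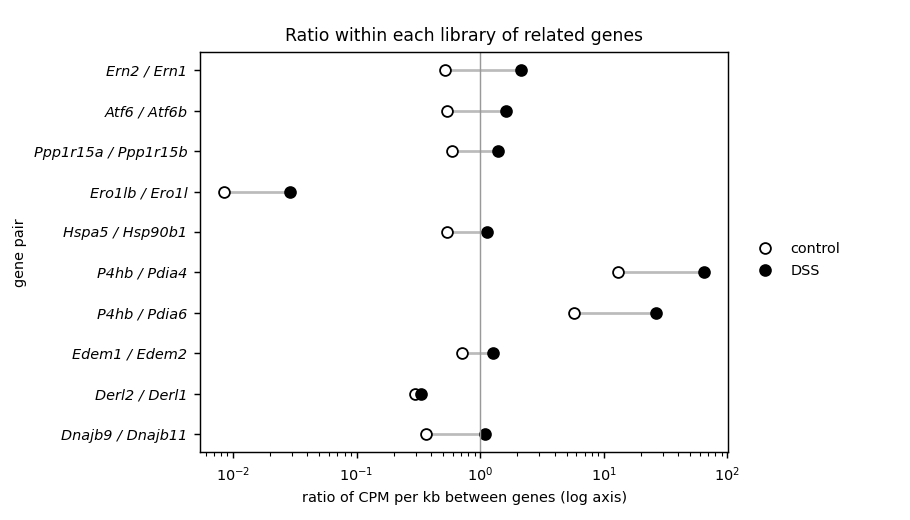
Ratio between the genes of a pair within each library, from TMM-scaled CPM per kilobase of transcript on a log axis, for the control (open circles) and the DSS library (filled circles). Of the 10 pairs plotted, Ern2 / Ern1, Atf6 / Atf6b, Ppp1r15a / Ppp1r15b, Hspa5 / Hsp90b1, Edem1 / Edem2 and Dnajb9 / Dnajb11 cross the line of 1 between the libraries, and Derl2 / Derl1 barely moves. In counts not divided by transcript length, only Hspa5 / Hsp90b1 and Dnajb9 / Dnajb11 of these pairs cross it.

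The ERAD genes varied little. None of the 7 listed genes was past the line of 1 in either direction, and the median was 0.45. Syvn1, the ubiquitin ligase of the main ERAD complex, had 2692 and 3365 counts (37.6 and 61.5 CPM) and a log2 ratio of 0.71. Edem1, which directs misfolded glycoproteins to degradation, was at 0.64 with 5350 and 6362 counts. Herpud1, which organises the complex, was at 0.57 with 6725 and 7613 counts, and Sel1l, the partner of the ligase, was at 0.45 with 6749 and 7049 counts. These 4 genes were above 0 with each of the 4 scalings. The channel proteins and the second mannosidase-like factor were lower. Edem2 was at -0.18 with 2934 and 1973 counts, and Derl1 at -0.20 with 7210 and 4798 counts. Derl2, with 2493 and 1844 counts, was at -0.05 with an interval from -0.13 to 0.04 that included 0.

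Of 21 other ERAD components, 3 reached 1 and none reached -1, with a median of 0.06. Ngly1, the cytosolic enzyme that removes glycans from exported proteins, was at 1.13 with 1246 and 2081 counts. Edem3 was at 1.08 with 2796 and 4517 counts, and Fam8a1, a partner of the ligase complex, was at 1.01 with 4875 and 7475 counts.

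The translocon, the channel through which new proteins enter the ER, was lower in the DSS library by less than the line. Sec61a1, its pore subunit, had 16823 and 8233 counts (235 and 151 CPM) and a log2 ratio of -0.64. Sec61b had 3419 and 1797 counts (47.8 and 32.9 CPM) and a log2 ratio of -0.54. Among 30 genes of signal recognition, translocation and N-glycan transfer, 23 were below 0, against 8963 of all 17235 genes tested. None of the 30 was past the line of 1, and their median was -0.39. The lowest were Sec61a2 at -0.99, Srp72 at -0.90 and Ddost, a subunit of the oligosaccharyltransferase, at -0.89.

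**Figure D4:**
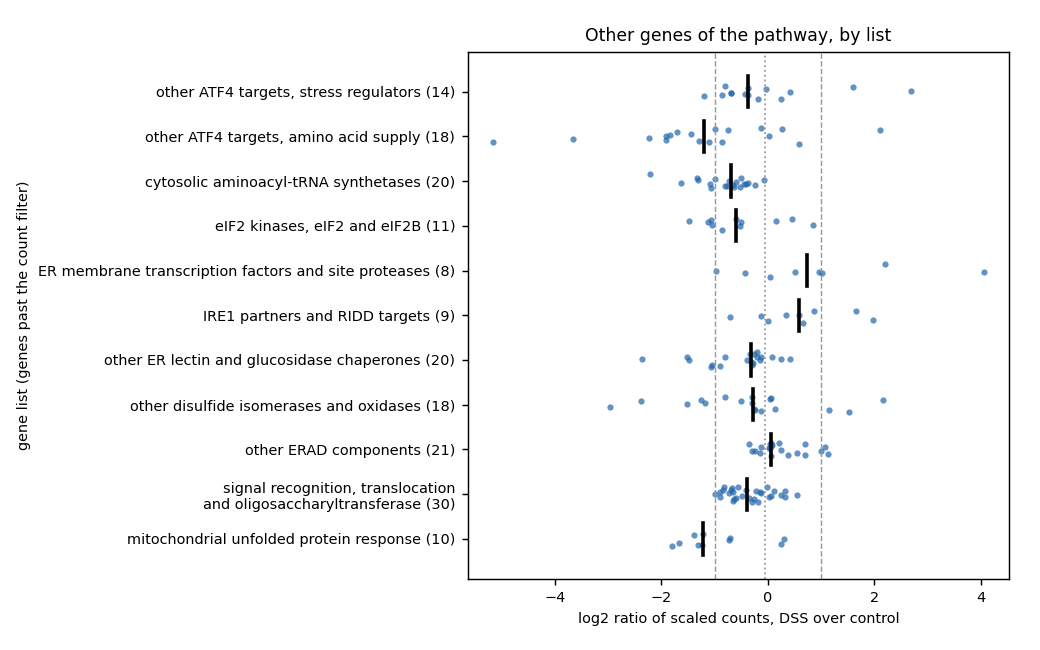
Log2 ratio of scaled counts, DSS over control, for the other genes of the pathway (points) in 11 hand-written lists, with the number of genes past the count minimum in parentheses and a bar at each median. Dashed lines mark 1 and -1 and the dotted line the median of all genes. Amino acid supply and the mitochondrial list lie lowest, and the ER membrane transcription factors and site proteases highest.

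Over the 11 lists, 7.82% of 179 genes (14) reached 1 and 21.2% (38) reached -1, against 19.3% and 20.2% of all genes tested. With 10 counts required in both libraries, 12 of the genes in the lists reached 1 and 37 reached -1. The list of the mitochondrial unfolded protein response, which has been tied to Atf5, was lower, with 6 of 10 genes at -1 or less, none at 1 or more and a median of -1.23. The chaperonin Hspd1 had 49215 and 10796 counts (688 and 197 CPM) and was at -1.80. Its partner Hspe1 was at -1.68, and the protease Htra2 at -1.38.

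Genes that share the ERSE did not share a direction. The 7 genes with a match ran from -1.36 for Pdia6 and -1.07 for Hsp90b1, through -0.40 for Creld2, 0.01 for Hspa5, 0.19 for Dnajc3 and 0.71 for Syvn1, to 1.74 for Ero1lb. Their median was 0.01. Hsp90b1 holds its matches 212 to 194 and 107 to 89 bases before the start, Hspa5 65 to 47 bases before it and Ero1lb 201 to 183 bases before it, as marked in the sequences shown above. Herpud1 holds the ERSE-II 52 to 42 bases before the start and a CARE core 112 to 105 bases before it.

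Both libraries are labelled as intestinal stem cells. Markers of these cells had summed levels of 832 and 130 CPM over 5 genes, each at -1 or less. Most of the sum in the DSS library was Smoc2, at 104 CPM. Lgr5 had 18849 and 1048 counts, and Olfm4 13109 and 13 counts. Markers of other cells of the gut wall were low. The 4 mesenchymal markers past the count minimum summed to 6.62 and 35.9 CPM, the 2 immune markers to 7.15 and 12.8 CPM, and the endothelial marker Pecam1 was at 0.168 and 1.01 CPM. Tuft cell markers summed to 9.89 and 5.07 CPM.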

How the data were processed

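Poly(A) RNA of 1 control and 1 DSS-treated organoid culture was sequenced with a stranded kit. The authors deposited counts per gene that carry no normalization. The submitters' processing notes name HISAT2 and StringTie; the genome build, the annotation and the handling of reads shared between genes are not given in the sources used here. The files of the single samples carry FPKM in their names, but their values equal the counts for all 19294 genes. No listed gene has fewer than 1 count in either library.

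TMM factors from edgeR 4.0.16 (R 4.3.3) were 1.09 for the control and 0.915 for the DSS library. Each log2 ratio has an exact Clopper-Pearson 95% interval. Differences between 2 genes have a Woolf interval. No test was made, since each condition is 1 library. Levels between genes were divided by the longest protein-coding transcript of GENCODE vM21, matched by NCBI gene identifier for all 37 genes. RefSeq spans of 14 of these genes overlap another gene. Among the genes past the line of 1, these are Atf5, Ddit3, Ppp1r15a, Atf6, Pdia4, Pdia6 and Ero1lb. Ern2, Dnajb9 and Hsp90b1 overlap none. The part of shared reads in their counts was not tested. RefSeq promoter windows (GRCm38.p6) were cut to the 250 bases before the start and searched on both strands.

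All 37 genes are described. In each of 11 lists, the text names the 3 genes farthest from a log2 ratio of 0 that have 50 or more counts in one library, and genes named after their values were seen are marked. The members and lists were chosen with earlier results of these data known. The computation was tested on simulated counts with counting error only and few changed genes, balanced between higher and lower. Many more genes differ in these data, so that test checks the arithmetic and cannot check the scaling. Alternatives were scaling by total counts, by upper quartile factors or by size factors of DESeq2 1.42.0, thinning, a prior count of 2, other count minimums, a line of 2, the counting interval against the line, and means. Centring on the median of all genes, and all alternatives for the 11 lists, were added after the data were seen. Python 3.11.15, scipy 1.17.1, pandas 2.3.3 and matplotlib 3.10.9 were used.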

Additional observations from a re-analysis of the deposited data

How the results depend on the processing

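Each condition is 1 library, so the values hold for these cultures and their intervals cover counting error only. No paired analysis was possible because each group has 1 sample and no test was made. No gene at 1 or more or at -1 or less changed sign under an alternative. Among the scalings, the sign changed for 8 genes near 0 (Ppp1r15b, Ern1, Xbp1, Hspa5, Dnajb11, Dnajc3, Ero1l and Derl2) and the side of the line for Atf6 and Hsp90b1.

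With total counts, the median of all genes shifted by -0.26. The medians became -0.24 for all 37 genes, 0.29 for the PERK/ATF4 arm, -0.042 for the IRE1/XBP1 arm, 0.044 for the ATF6 arm, -0.45 for chaperones, -0.47 for disulfide formation, 0.20 for ERAD and -0.85 for the translocon, and 9 of the other pathway genes were at 1 or more. With upper quartile factors, they were 0.10 for all 37 genes, 0.63 for the PERK/ATF4 arm, -0.11 for chaperones, 0.54 for ERAD and -0.50 for the translocon. Centred on the median of all genes, they were 0.069, 0.60, -0.14, 0.51 and -0.53 in the same order. Such shifts follow from the scaling, which moves every gene alike. Means in place of medians gave 0.15 for all 37 genes, 0.35 for the PERK/ATF4 arm, 0.81 for the IRE1/XBP1 arm, -0.070 for chaperones and 0.28 for ERAD. With a line of 2, 1 of the 37 genes was at 2 or more and 0 were at -2 or less, and of the other pathway genes 5 and 7. Of the remaining 96 values, medians moved within the counting interval of the gene nearest to them, and counts by at most 1.5 times. The other count minimums could not move any value of the 37 genes, since all of these genes passed each minimum.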

Other observations

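Outside the described genes, 13 genes past the count minimum hold the ERSE in the 250 bases before their start. Their log2 ratios ran from -3.58 to 1.10 with a median of -0.35, of which 1 reached 1 and 2 reached -1. Calr and Canx, lectin chaperones of the ER, are among them, as is Alg12, an enzyme that builds N-glycans, at 0.14 with 632 and 533 counts. The lowest was Adcy3, an adenylyl cyclase, with 47 and 3 counts. The CARE core, which is short and common, was found before 313 other genes, with a median of 0.17, and 83 of them reached 1 and 45 reached -1. Over all genes tested, 19.3% reached 1 and 20.2% reached -1. These genes were looked up after the data were seen, and a match to letters is no measured site.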
